A study of Mus musculus with 4 samples.

Results

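The interleukin-1 receptor family of mouse regulatory T cells, with its decoy receptor and its soluble antagonist, was examined on 4 arrays. The members were 9 genes given by name: Il1r1, Il1r2, Il1rap, Il1rl1, Il1rl2, Il1rn, Il18r1, Il18rap and Sigirr. They were taken as transcript clusters (the array's unit for a gene) that carry the symbol in the platform annotation. Of the 9, 8 had a cluster, each with exactly 1 cluster and none shared with another gene, among 30351 named genes in all. Il1rl1, which encodes the interleukin-33 receptor ST2, was not on a named cluster and is not analysed here. The family was selected on the log2 values of Il1r2 and Il1rn, which read higher in the arrays labelled KO, so the genotype difference of these 2 genes is described and not tested.

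The arrays labelled KO (replicates 1 and 2) came from mice that combine the Foxp3EGFP-cre transgene of the strain B6-Tg(Foxp3EGFP-cre)1cJbs/J with a BMI1-flox allele on C57BL/6. The arrays labelled WT (replicates 1 and 3) came from mice with the same transgene crossed to C57BL/6 without the floxed allele. Both groups therefore carry Cre, whose expression Foxp3 control limits to Foxp3-expressing cells. The cells of both were green fluorescent CD4 cells sorted from spleen at an age of 7 to 8 weeks, 15000 to 40000 of them a sample. The titles and the treatment field describe unstimulated cells, while the series design names antibody stimulation of CD3 and CD28 lasting 24 hours, and no source resolves this.

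Values are log2 expression values as the authors deposited them. Bmi1, the targeted Polycomb gene, read 9.58 and 9.91 in the arrays labelled KO, against 8.98 and 8.98 in the arrays labelled WT. It was thus not lower in the arrays labelled KO, and whether its cluster lies in the deleted part is not known, so each direction below rests on the labels. The interleukin-2 receptor gene Il2ra, a defining regulatory T cell gene, lay between 14.97 and 15.01 in all 4 arrays. Foxp3 shares its cluster with the gene Flicr, so its value is not that of Foxp3 alone. This shared cluster read 13.50 and 13.23 in the arrays labelled KO against 13.20 and 13.39 in those labelled WT. Of 6 measured regulatory T cell markers 0 passed and 2 had an unadjusted limma p under 0.05, in opposite directions. Over all genes 10.1% had such a p. Lrrc32, which anchors latent TGF-beta, read 11.18 and 10.48 in the arrays labelled KO against 12.05 and 12.28 in those labelled WT (difference -1.33, SE 0.25, limma adjusted p 0.297). The receptor gene Gpr83 read 12.51 and 12.74 in the arrays labelled KO against 11.88 and 11.07 in those labelled WT (difference 1.15, SE 0.28, limma adjusted p 0.353). The median named gene lay at 5.01 and 5.05 in the arrays labelled KO and at 5.05 and 5.0 in those labelled WT. Across all genes 2 passed a limma adjusted p under 0.05. The labels do not name animals, so each p rests on the spread between arrays alone, which may be technical, and with so few arrays the precision is limited.

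Interleukin-1 signals when it binds IL-1R1 (Il1r1) and the pair recruits the accessory protein IL-1RAcP (Il1rap), which brings the intracellular TIR domains together and leads through MyD88 to NF-kB. IL-1R2 (Il1r2) binds interleukin-1 but lacks a TIR domain and acts as a decoy, and the secreted antagonist IL-1Ra (Il1rn) occupies IL-1R1 without recruiting the accessory protein. The receptors for interleukin-18 (Il18r1 with Il18rap), interleukin-33 (Il1rl1) and interleukin-36 (Il1rl2) are built on the same plan, and SIGIRR, also called TIR8, is an inhibitory relative. IL-1R2 is known from activated regulatory T cells and from follicular regulatory T cells.

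None of the 6 measured members that were not chosen on their values passed a limma adjusted p under 0.05, a threshold that 0.00659% of all genes passed. Of these 6, 1 (Sigirr) had an unadjusted limma p under 0.05, as had 10.1% of all genes. The decoy Il1r2, the antagonist Il1rn, the inhibitory receptor Sigirr and the interleukin-36 receptor Il1rl2 read higher in both arrays labelled KO than in both arrays labelled WT. That is 4 of 8 members, and 20.9% of all genes were placed in the same way. No member lay lower in both arrays labelled KO, against 17.5% of all genes. With 1 array left out, the higher members numbered 4 without KO replicate 1 (36.5% of all genes) and 7 without KO replicate 2 (33.2%). They numbered 5 without WT replicate 1 (37.8%) and 4 without WT replicate 3 (35%). Since Il1r2 and Il1rn were chosen for this pattern, their part of the count shows nothing beyond their choice. Of the 6 members not chosen on their values, 2 (Sigirr and Il1rl2) had both arrays labelled KO above both labelled WT. The same held for 20.9% of all genes and for 28.8% of the genes at or above the median level, where Sigirr and Il1rl2 lie. With so few members this is a description and was not tested. The other 4 members, Il1r1, Il1rap, Il18r1 and Il18rap, overlapped between the groups. The median difference (labelled KO minus labelled WT) was 0.16 over the 6 members that were not chosen on their values. It was 0.005 over all genes and 0.04 over the genes at or above the median level.

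**Figure D1:**
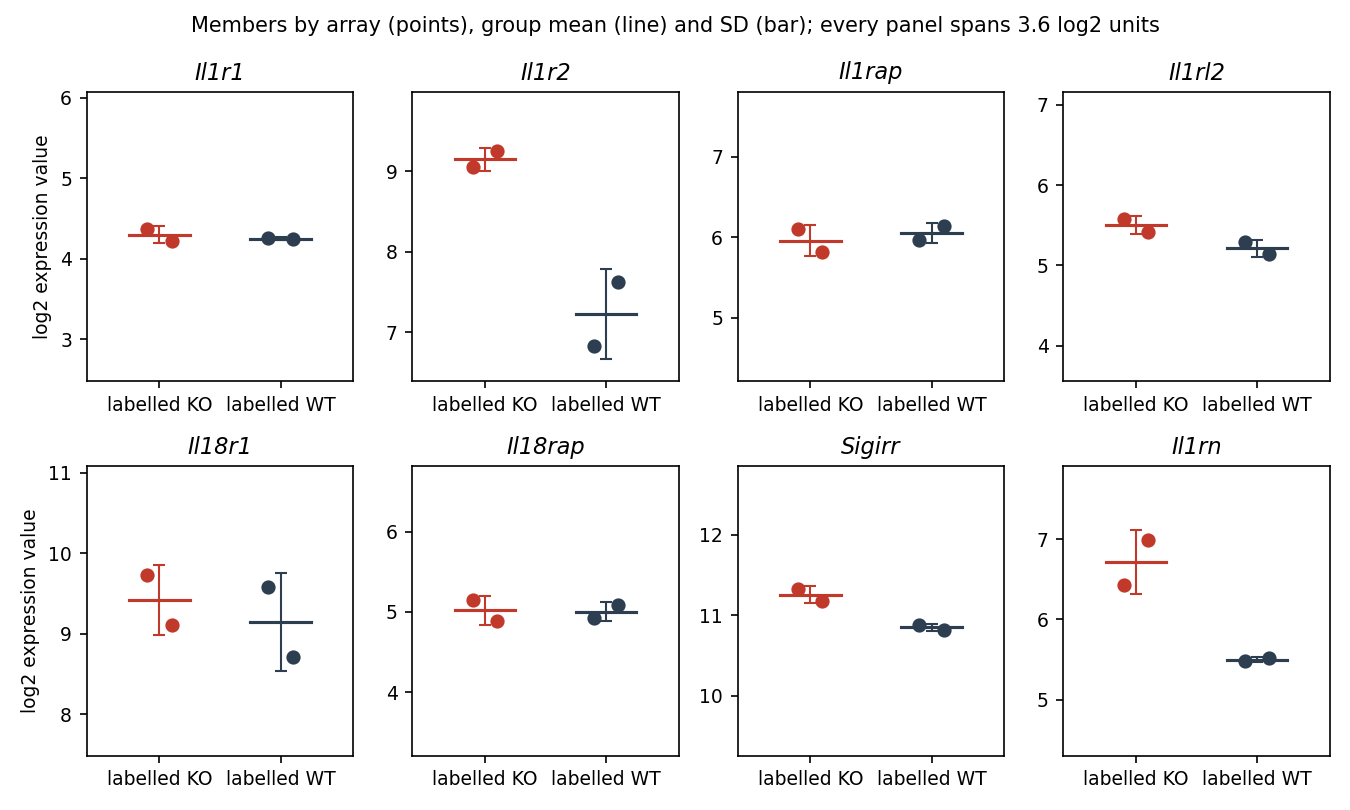
Log2 expression value (vertical axis, each panel spanning the same number of log2 units) of the 8 measured members in the arrays labelled KO (left) and labelled WT (right). Points are arrays, lines group means and bars SD (n = 2 each). The groups stand apart by 1.43 for Il1r2 and by 0.91 for Il1rn, by less for Sigirr and Il1rl2, and overlap for the other 4.

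The decoy receptor gene Il1r2 had the largest difference among the 8 measured members. It read 9.05 and 9.25 in the arrays labelled KO, against 6.83 and 7.62 in the arrays labelled WT. The arrays labelled KO were close together and both high, whereas the arrays labelled WT were lower and 0.79 apart. The means were 9.15 ± 0.14 in the arrays labelled KO and 7.22 ± 0.56 in those labelled WT (SD, n = 2 each), a difference of 1.93 (SE 0.28) or 3.80-fold. The lowest array labelled KO lay 1.43 above the highest labelled WT, more than either group's own spread of 0.20 (labelled KO) and 0.79 (labelled WT). Counting Il1r2 itself, 17 of the 30351 genes and 6 of the 18958 protein-coding genes had a difference at least as large. Il1r2 was chosen because it read higher in the arrays labelled KO, so this gap and rank only describe it.

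The antagonist gene Il1rn, whose product competes with interleukin-1 for IL-1R1, had the next largest difference. It read 6.43 and 6.99 in the arrays labelled KO, against 5.48 and 5.52 in the arrays labelled WT. Here the arrays labelled WT were the close pair, and KO replicate 2 stood 0.56 above KO replicate 1. The means were 6.71 ± 0.40 in the arrays labelled KO and 5.5 ± 0.03 in those labelled WT (SD, n = 2 each), a difference of 1.21 (SE 0.20) or 2.31-fold. The groups were separated by 0.91. A difference at least as large was seen for 74 genes, Il1rn included, of which 26 were protein-coding. Il1rn was chosen in the same way, so these values too only describe it.

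The promoters of these 2 genes are shown because Bmi1 belongs to Polycomb repressive complex 1, which is known to occupy CpG-rich promoters in many cell types. The sequences are the 250 bases before a RefSeq start on GRCm38.p6, plus strand, with CpG dinucleotides in capitals. The window of Il1r2 lies at chr1:40085843-40086092 and that of the first of 3 listed Il1rn starts at chr2:24336610-24336859. Which start is used in these cells cannot be read from the array.
Il1r2: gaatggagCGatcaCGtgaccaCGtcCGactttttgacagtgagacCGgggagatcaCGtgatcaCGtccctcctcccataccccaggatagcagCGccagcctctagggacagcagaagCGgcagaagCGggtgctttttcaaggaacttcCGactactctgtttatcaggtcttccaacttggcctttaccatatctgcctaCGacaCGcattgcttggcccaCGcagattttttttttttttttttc
Il1rn: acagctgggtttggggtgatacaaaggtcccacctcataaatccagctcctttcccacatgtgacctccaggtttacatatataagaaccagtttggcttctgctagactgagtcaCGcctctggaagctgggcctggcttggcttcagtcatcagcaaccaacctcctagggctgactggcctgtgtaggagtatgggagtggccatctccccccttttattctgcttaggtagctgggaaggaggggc

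The Il1r2 window held 14 CpG and the first Il1rn window 1, against a median of 6 over 32841 windows of all genes. The ratio of observed to expected CpG was 0.865 for Il1r2 and 0.0565 for the first Il1rn window, with a median of 0.374 over all windows. The other Il1rn starts, whose windows overlap each other, had ratios of 0.298 and 0.306. A ratio above 0.6 together with a GC content above 50% was met by the windows of Il1r2 and Il1rap among the 14 windows of 8 members (Sigirr was not in the promoter table), and by 30.78% of all windows. The ratio of the Il1rap window was 0.870. Polycomb occupancy was not measured in these data, and a link between CpG content and the expression differences was not tested.

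**Figure D2:**
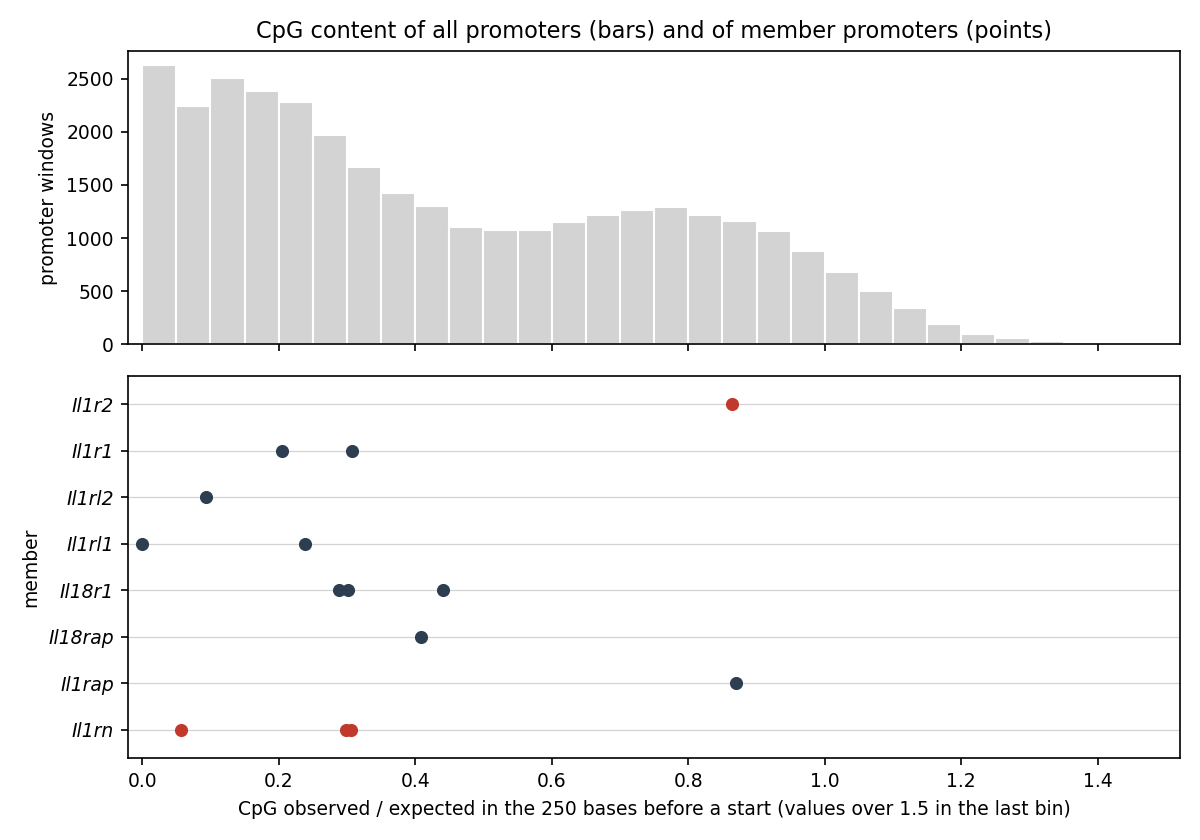
Ratio of observed to expected CpG (horizontal axis) in the 250 bases before RefSeq starts. Bars (top) count all 32841 windows, and points (bottom) are the windows of 8 members, with Il1r2 and Il1rn in red; Il1r2 and Il1rap lie near 0.87 and the other members at or below 0.441.

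Letter matches to known motifs were searched on both strands of the same windows. The AP-1 motif (TGANTCA), bound by activation-induced factors in T cells, occurred in the first Il1rn window 141 bases before the start, and in no other member window (6.75% of all windows hold it). The NF-kB-like pattern GGGNNNNNCC occurred in the first and the last Il1rn window and not in that of Il1r2 (45.8% of all windows). The NFAT core TGGAAA, which overlaps none of the other matches, lay 62 bases before the last Il1rn start (18.6% of all windows). The forkhead motif TGTTTAC (3.17% of all windows) and the ETS motif GAGGAAGT (2.44%) were in no window of Il1r2 or Il1rn. The Il1r2 window held the E-box CACGTG at 238 and 195 bases before the start. This motif was chosen after the sequence had been seen, and 6.02% of all windows hold it at least once and 0.429% at least 2 times. The stretches with these matches are shown with the motif in capitals, at chr2:24336707-24336737 for Il1rn and at chr1:40085843-40085872 and chr1:40085886-40085915 for Il1r2 (GRCm38.p6, plus strand).
Il1rn AP-1: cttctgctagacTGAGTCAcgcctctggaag
Il1r2 E-box, distal: gaatggagcgatCACGTGaccacgtccgac
Il1r2 E-box, proximal: gaccggggagatCACGTGatcacgtccctc

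The signalling receptor gene for interleukin-1 and its accessory gene did not separate the groups. Il1r1 read 4.37 and 4.22 in the arrays labelled KO, against 4.26 and 4.24 in the arrays labelled WT. All 4 values lay below the median named gene of their array and the groups overlapped, with a difference of 0.045 (SE 0.09, 95% interval -0.18 to 0.27, limma adjusted p 0.923). The table has no background measure, so a gene this dim may have a change that the array understates. The accessory gene Il1rap read 6.10 and 5.82 in the arrays labelled KO and 5.97 and 6.14 in those labelled WT. Its groups also overlapped, with a difference of -0.095 (SE 0.14, 95% interval -0.46 to 0.27, limma adjusted p 0.889).

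Sigirr, the inhibitory relative that restrains signalling by interleukin-1 receptors, read 11.33 and 11.18 in the arrays labelled KO, against 10.88 and 10.82 in the arrays labelled WT. Both arrays labelled KO were above both labelled WT, by a gap of 0.30 that exceeds the spread within either group (0.15 labelled KO and 0.06 labelled WT). The difference of 0.41 (SE 0.12, 1.32-fold) did not pass over all genes, with a limma adjusted p of 0.409 and a 95% interval of 0.09 to 0.72. Il1rl2, the interleukin-36 receptor, read 5.58 and 5.42 in the arrays labelled KO and 5.29 and 5.14 in those labelled WT. The groups did not overlap, but the gap of 0.13 was smaller than the 0.16 between the arrays labelled KO and the 0.15 between those labelled WT. Its difference was 0.29 (SE 0.11, limma adjusted p 0.502).

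The interleukin-18 receptor chains did not separate the groups. The ligand-binding chain Il18r1 read 9.73 and 9.11 in the arrays labelled KO and 9.58 and 8.71 in those labelled WT. Replicate 1 was the higher array in each group, and arrays of the same group lay 0.62 (labelled KO) and 0.87 (labelled WT) apart, more than the difference between the groups of 0.28 (SE 0.35, 95% interval -0.63 to 1.18, limma adjusted p 0.866). Its accessory chain Il18rap read 5.15 and 4.89 in the arrays labelled KO and 4.92 and 5.09 in those labelled WT, near the median gene. The difference was 0.015 (SE 0.13, 95% interval -0.31 to 0.34, limma adjusted p 0.976).

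Most of these receptor genes lie side by side on chromosome 1, in the order Il1r2, Il1r1, Il1rl2, Il1rl1, Il18r1 and Il18rap in the RefSeq annotation of GRCm38.p6. The kinase gene Map4k4, beside Il1r2 at the outer end, differed by 0.05 (SE 0.12), and the sodium-proton exchanger gene Slc9a4, beside Il18rap, by -0.025 (SE 0.10). Il1r2 therefore had a large difference between neighbours, Map4k4 and Il1r1, whose differences were no larger than their errors. Il1rn on chromosome 2 lies between the family's own gene Il1f10 (0.045, SE 0.07) and Psd4 (-0.035, SE 0.13). Sigirr on chromosome 7 lies between Pkp3 (0.025, SE 0.12) and Ano9 (-0.03, SE 0.08). Il1rap on chromosome 16 lies between Tmem207 (-0.14, SE 0.11) and Gmnc (-0.03, SE 0.13). Limma adjusted p for these 8 neighbours lay between 0.770 and 0.967.

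**Figure D3:**
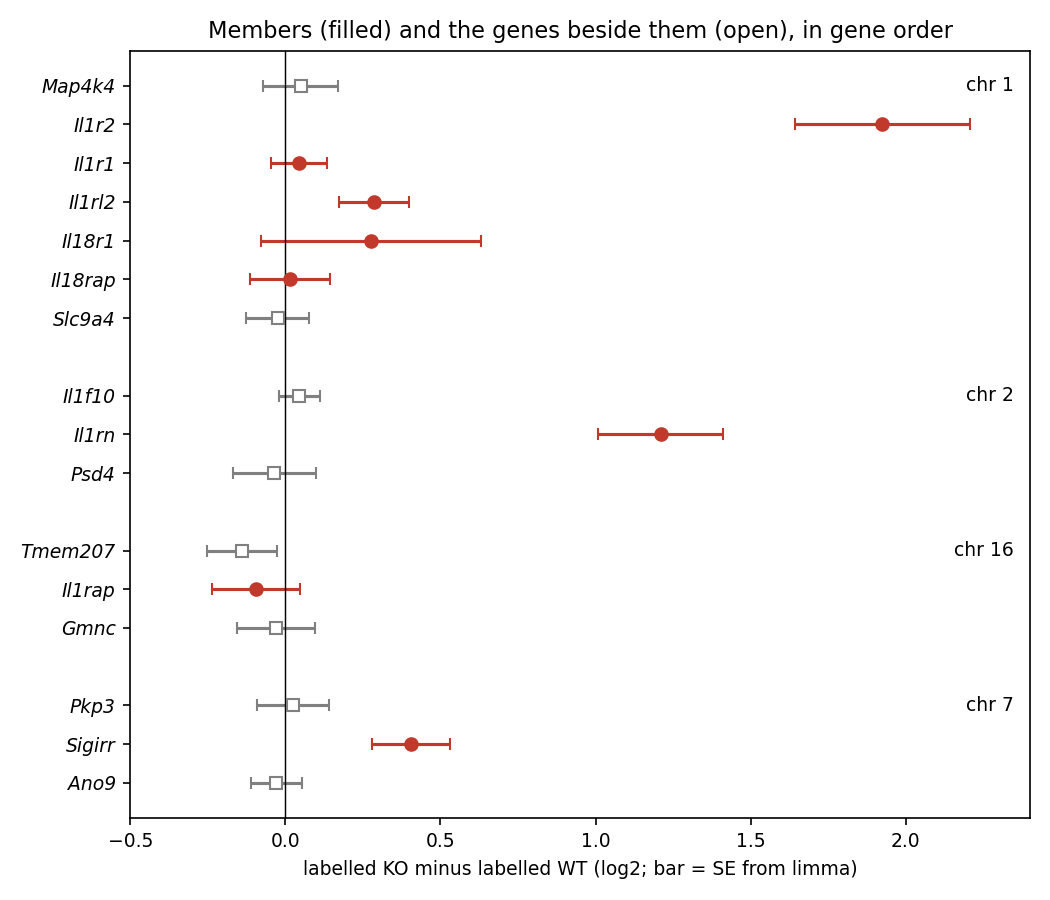
Difference labelled KO minus labelled WT (horizontal axis, log2, bars SE from limma) for the 8 measured members (filled) and the genes beside them (open), in gene order on 4 chromosomes. Il1r2 at 1.93 and Il1rn at 1.21, both chosen on these values, stand away from their neighbours. The neighbours lie near 0, and several of them are dim. Il1rl1, between Il1rl2 and Il18r1, is not plotted.

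The ligands of these receptors showed no such differences. Of 10 listed ligands and soluble regulators 9 were measured and 0 passed in either direction, with a positive difference for 1 and a negative for 8 and a median of -0.11. Over all genes 51.0% had a positive and 48.02% a negative difference. None of the 9 had an unadjusted limma p under 0.05, against 10.1% of all genes. The interleukin-1 genes read 4.03 and 4.02 (Il1a) and 3.93 and 4.17 (Il1b) in the arrays labelled KO, against 4.33 and 4.16 (Il1a) and 4.10 and 4.03 (Il1b) in those labelled WT. Their differences were -0.22 (SE 0.09) and -0.015 (SE 0.11). Il18 differed by -0.11 (SE 0.14) and Il33, the ligand of ST2, by -0.035 (SE 0.07). The interleukin-36 ligands, listed as Il1f6, Il1f8 and Il1f9, differed by -0.14 (SE 0.09), -0.02 (SE 0.10) and -0.13 (SE 0.09), and Il1f10 by 0.045 (SE 0.07). In all 4 arrays 7 of the 9 measured genes lay below the median gene. Il18bp, a secreted protein that binds interleukin-18, read 7.20 and 7.11 in the arrays labelled KO and 7.01 and 7.87 in those labelled WT, so that the groups overlapped (difference -0.285, SE 0.29). The smallest limma adjusted p of the list was 0.516, for Il1a.

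Downstream of the receptors, 22 of 26 listed genes of TIR and NF-kB signalling were measured and 0 passed in either direction, with an unadjusted limma p under 0.05 for 1. Relative to the arrays labelled WT, 8 were higher and 13 lower, with a median of -0.0275 and differences from -0.335 to 0.205. The smallest p belonged to Myd88, the adaptor shared by the family, at 9.25 and 9.23 in the arrays labelled KO against 9.62 and 9.53 in those labelled WT (difference -0.335, SE 0.13, limma adjusted p 0.478). Tab1, a partner of the kinase TAK1, differed by -0.315 (SE 0.14), the NF-kB subunit gene Rel by -0.25 (SE 0.12) and Nfkbiz, a nuclear regulator of NF-kB, by -0.24 (SE 0.16). Over all genes 51.0% had a positive and 48.02% a negative difference, and 10.1% an unadjusted limma p under 0.05.

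Among 8 genes for proteases and related proteins that act on the ligands, 0 passed, and the values were uneven. An unadjusted limma p under 0.05 was seen for 2 of them and for 10.1% of all genes. Casp1, which matures interleukin-1 beta and interleukin-18, read 11.78 and 11.59 in the arrays labelled KO against 10.21 and 10.31 in those labelled WT, a difference of 1.43 (SE 0.13, limma adjusted p 0.121). Casp4 read 9.19 and 9.13 in the arrays labelled KO against 8.11 and 8.30 in those labelled WT (0.96, SE 0.14, limma adjusted p 0.236). Gsdmd, the pore former through which interleukin-1 beta leaves cells, differed by 0.21 (SE 0.16), and Ctss, a lysosomal protease, by -0.23 (SE 0.16). The list median was -0.0075. The neuronal relatives Il1rapl1 and Il1rapl2 lay below the median gene in all arrays and differed by -0.08 (SE 0.08) and -0.025 (SE 0.09).

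Gene lists of T cell states in which family members are known gave no call either. Of 12 activation genes 8 had a higher mean in the arrays labelled KO, and 0 passed the threshold (median 0.14, 3 with an unadjusted limma p under 0.05). Those of smallest p were the adhesion receptor gene Cd44 (0.51, SE 0.13), the early activation marker Cd69 (0.46, SE 0.11), the proliferation marker Mki67 (1.17, SE 0.32) and the immediate early gene Nr4a1 (0.26, SE 0.15). Mki67 read 8.69 and 8.90 in the arrays labelled KO against 7.17 and 8.09 in those labelled WT. Like Il1r2, it was lowest in WT replicate 1. Over all genes 51.0% had a positive difference and 10.1% an unadjusted limma p under 0.05. Both arrays labelled KO lay above both labelled WT for 6 of the 12 activation genes, against 20.9% of all genes. They lay below for 1, against 17.5%.

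Of 14 genes listed for follicular regulatory T cells 9 had a positive and 5 a negative difference, with a median of 0.105, 0 past the threshold and 1 with an unadjusted limma p under 0.05. The chemokine receptor gene Cxcr5, which guides cells into follicles, read 7.82 and 7.78 in the arrays labelled KO and 7.80 and 7.67 in those labelled WT. The genes of smallest p were S1pr2 (-0.435, SE 0.17), Maf (0.295, SE 0.13), Tox2 (0.31, SE 0.13) and Sostdc1 (0.205, SE 0.09). Of 10 measured genes of tissue regulatory T cells, which are known to carry ST2, 4 were higher and 6 lower, with a median of -0.015, 0 past the threshold and 1 with an unadjusted limma p under 0.05. They were led by Klrg1 (-0.59, SE 0.14), Nfil3 (0.33, SE 0.14), Batf (0.505, SE 0.25) and Ccr8 (-0.25, SE 0.14). Over all genes 51.0% had a positive and 48.02% a negative difference, and 10.1% an unadjusted limma p under 0.05. Both arrays labelled KO lay above both labelled WT for 7 of the 14 follicular and 2 of the 10 tissue genes, against 20.9% of all genes. They lay below for 3 and 2, against 17.5%.

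**Figure D4:**
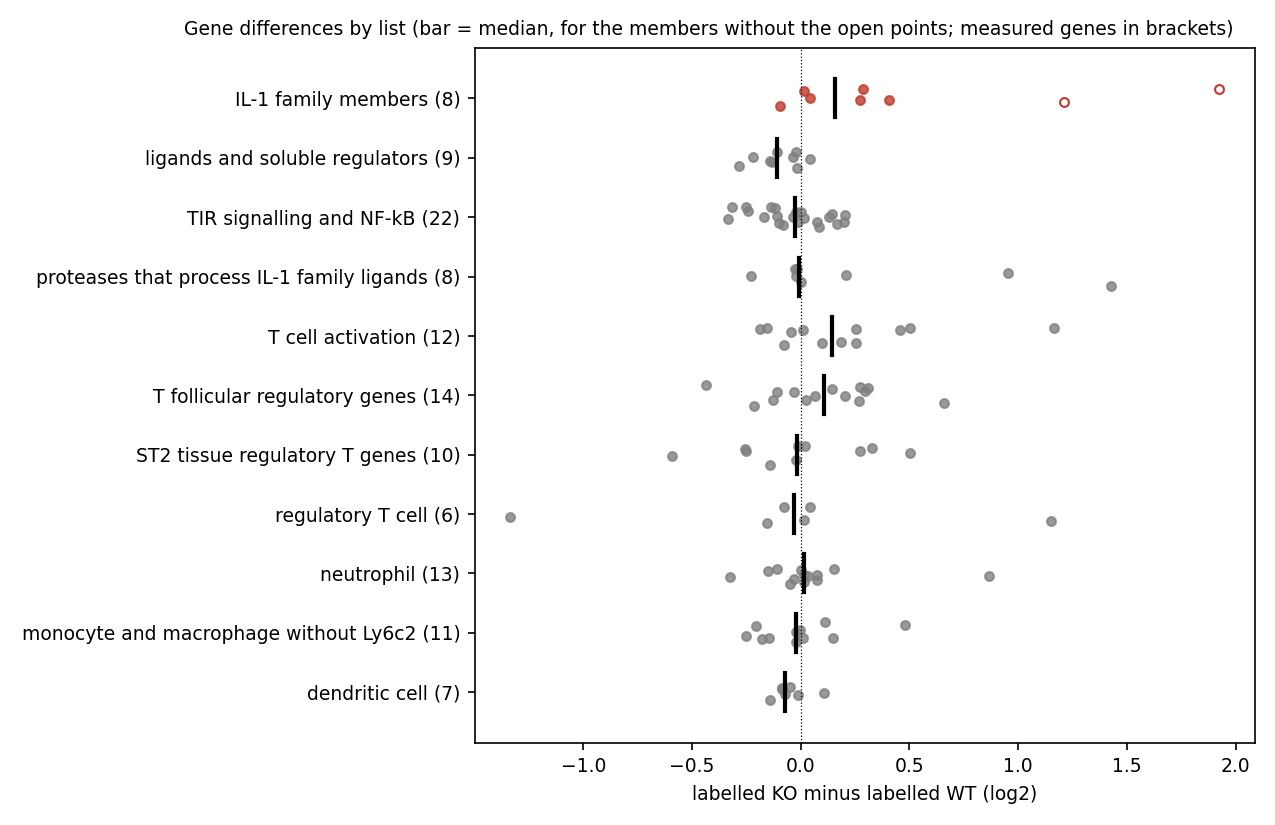
Difference labelled KO minus labelled WT (horizontal axis, log2) of each measured gene of a list, with the list median as a black bar. The bar of the family, at 0.16, leaves out Il1r2 and Il1rn (open points at the right), which were chosen on these values; the ligands have a median of -0.11 and the TIR and NF-kB list one of -0.0275.

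Il1r2 and Il1rn are also known from neutrophils and macrophages, so markers of cells that a sort could carry over are given, with levels summed on the linear scale. In bulk samples, fewer cells of a type and less RNA per cell cannot be told apart. Of 13 neutrophil markers 10 lay below the median gene in all arrays, among them S100a8, Elane and Mpo. The sum was 366 to 538 in the arrays labelled KO and 345 to 348 in those labelled WT. The higher sum of KO replicate 1 went with Cxcr2, a chemokine receptor, which read 8.24 and 7.01 in the arrays labelled KO and 6.70 and 6.82 in those labelled WT. S100a8 read 3.57 and 3.30 in the arrays labelled KO and 3.70 and 3.82 in those labelled WT. Il1rn was higher in KO replicate 2 and Cxcr2 in KO replicate 1, and whether neutrophils contributed to Il1rn was not tested.

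Of 12 measured monocyte and macrophage markers 10 lay below the median gene in all arrays, among them Csf1r, Lyz2 and the C1q genes. Without Ly6c2, which T cells also express, they summed to 236 to 239 in the arrays labelled KO and 221 to 240 in those labelled WT. Ly6c2 read 14.07 and 13.33 in the arrays labelled KO and 8.60 and 13.38 in those labelled WT, and thus set WT replicate 1 apart. Dendritic cell markers (7 measured, 6 below the median gene) summed to 168 to 171 in the arrays labelled KO and 168 to 181 in those labelled WT. Mast cell and basophil markers (4 measured, all below the median gene) summed to 59.9 to 61.8 in the arrays labelled KO and 58.2 to 60.4 in those labelled WT. Myeloid marker genes other than Cxcr2, Ly6c2 and the lysosomal gene Cd68 (0.48, SE 0.17) differed by at most 0.325 in either direction.

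Markers of lymphoid cells were less alike between the groups. The 5 measured T cell markers were higher in both arrays labelled KO than in both labelled WT. The same held for 20.9% of all genes and for 28.8% of the genes at or above the median level. The markers summed to 479200 to 495900 in the arrays labelled KO and 410900 to 420800 in those labelled WT. Cd3e differed by 0.57 (SE 0.06, limma adjusted p 0.141). Plasma cell markers (6 measured) summed to 2537 to 3196 in the arrays labelled KO and 2200 to 2613 in those labelled WT. Most of each sum was Xbp1, which read 11.50 and 11.14 in the arrays labelled KO and 10.98 and 11.25 in those labelled WT. Of the 6 markers 5 had a positive difference, with the antibody-joining gene Jchain at 1.03 (SE 0.13) and Mzb1 at 0.395 (SE 0.10). The difference was negative for 1, Sdc1 (-0.03, SE 0.08). Over all genes 51.0% had a positive and 48.02% a negative difference. NK cell markers (4 measured) summed to 230 to 426 in the arrays labelled KO and 174 to 192 in those labelled WT, with Eomes, which T cells can also express, at 1.08 (SE 0.37). Without Eomes the other 3 summed to 64.05 and 66.02 in the arrays labelled KO and 62.75 and 71.69 in those labelled WT. Of the CD8 T cell markers, Cd8b1 read 10.71 and 11.26 in the arrays labelled KO and 9.74 and 10.78 in those labelled WT, lowest in WT replicate 1, while Cd8a lay between 4.07 and 4.23 in all 4 arrays. B cell markers (5 measured) summed to 248.5 to 280.4 in the arrays labelled KO and 268.1 to 322.2 in those labelled WT. The part of these other cells in the values of Il1r2 and Il1rn was not tested.

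The protein-coding genes with the most similar profiles over the 4 arrays were found by the distance between values taken relative to each gene's mean. Nearest to Il1r2 were Pdlim1 (distance 0.248), which encodes a LIM domain protein of the cytoskeleton, Scg5 (0.380) and the actin-depolymerizing factor gene Dstn (0.383). Pdlim1 read 10.22 and 10.54 in the arrays labelled KO, against 8.23 and 8.69 in the arrays labelled WT, and like Il1r2 was lowest in WT replicate 1. Nearest to Il1rn were the tubulin gene Tubb2b (0.0927), Mid2 (0.149) and the lipid phosphatase gene Inppl1 (0.195). Tubb2b read 7.30 and 7.75 in the arrays labelled KO, against 6.25 and 6.28 in the arrays labelled WT, with KO replicate 2 the highest, as for Il1rn. Within a distance of 0.5 there were 7 other genes for Il1r2 and 73 for Il1rn. These 2 counts are not comparable, because the distance is fixed and fewer genes reach a difference as large as that of Il1r2. Closeness here largely restates the difference between the groups, on which Il1r2 and Il1rn were chosen.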

How the data were processed

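Each of 4 samples of sorted splenic regulatory T cells was measured on a 1-colour array, with 2 arrays in each group, taken from the titles. The authors deposited 1 table of log2 values for 65528 transcript clusters, made with RMA and Transcriptome Analysis Console, per the submitters' processing notes. The base of 2 follows from RMA, which reports log2, and the values run from 1.82 to 19.38. The array's background handling is not given in the sources used here, nor is its build, and the fields on labelling describe PCR.

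Clusters with 1 gene were named through the platform annotation, updated with RefSeq (GRCm38.p6), and for several clusters of a gene the brightest was kept, which left 30351 genes with no filter on low values. Differences (labelled KO minus labelled WT) were tested with limma 3.58.1 in R 4.3.3 (lmFit, eBayes with a trend, two-sided, prior degrees of freedom 3.16) and Benjamini-Hochberg adjustment over all genes at 0.05. The procedure was tested on simulated data. With 2 arrays a group, the smallest two-sided p of an exact permutation test is 0.333, so none was run. Promoter windows are RefSeq sequences of GRCm38.p6, read for the 250 bases before a start.

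The members and lists were chosen with earlier results of these data known. Named were all members, all ligands, up to 4 genes of smallest p of each pathway list, the genes beside the members, the 3 nearest profiles of Il1r2 and Il1rn (predicted genes passed over), and the markers. Other genes, such as Cxcr5, Cxcr2, Ly6c2, Cd68, Cd8b1, Eomes and Jchain, were named after their values were seen. The alternatives were median centring, quantile normalization, the brighter genes alone, the mean of a gene's clusters, a fit over all transcript clusters, eBayes without a trend or robust, and leaving out each array.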

Additional observations from a re-analysis of the deposited data

How the results depend on the processing

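Il1r2 and Il1rn kept the direction of their differences under all 11 alternatives. For leaving out an array this was fixed in advance, because both arrays labelled KO lay above both labelled WT. Without any 1 array Il1r2 ran from 1.53 to 2.32 and Il1rn from 0.93 to 1.49, and under the other alternatives they ran from 1.90 to 1.93 and from 1.19 to 1.21. Sigirr (0.33 to 0.48) and Il1rl2 (0.21 to 0.37) also kept theirs, which was fixed in advance in the same way. Among the other alternatives, only median centring and quantile normalization changed the differences of these genes. The members whose groups overlap changed sign when single arrays were left out: Il1r1 ran from -0.03 to 0.12, Il1rap from -0.235 to 0.045, Il18r1 from -0.16 to 0.71 and Il18rap from -0.115 to 0.145. Of the 6 members not chosen on their values, 0 passed an adjusted p under 0.05 in limma under any alternative (4 of them were left among the brighter genes). Members with the arrays labelled KO above the arrays labelled WT numbered 4 to 7 when an array was left out, Il1r2 and Il1rn included. Of all genes 33.2% to 37.8% did so, and fewer arrays make it easier. The 7 were found without KO replicate 2, where the share of all genes was 33.2%. Genes past the threshold over all genes numbered 2, and 1 after median centring, 0 after quantile normalization, 14 among the brighter genes alone, 4 over all transcript clusters, 0 in eBayes without a trend, 0 in robust eBayes, and 0 without any 1 array. In limma 2869 genes had an unadjusted p under 0.05 after quantile normalization, 3094 without a trend, 2992 with robust settings and 1674 to 2777 without an array. The cause of these changes was not tested. The table gives neither a detection call nor a background level, so dim genes such as Il1r1 and most ligands may have differences that it understates. No paired analysis was possible because the groups share only replicate number 1.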
